A study of Oryza sativa with 18 samples.

Results

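The circular RNAs (circRNAs) described here are the long ones of young rice panicles, with a genomic span of at least 5000 bases and at least 5 junction reads summed over 18 libraries. The span is the end minus the start in a circRNA's identifier, on the MSU rice genome used by the authors. Of the 9994 circRNAs of the table, 319 (3.19%) met both limits. The panicles were from Wuxiang S (WXS), an indica photo-thermosensitive genic male sterile line whose pollen fertility depends on day length and temperature. WXS (S) plants stayed in the field, with day lengths over 12 h and daily mean temperatures over 24 °C, and were male sterile. WXS (F) plants of the same line were moved at a panicle length of about 1 cm to an incubator with 12 h of light at about 21 °C for 3 to 4 weeks, and became male fertile. Panicles were taken at pollen mother cell formation (P2), meiosis (P3) and microspore formation (P4), which gives the groups SP2, FP2, SP3, FP3, SP4 and FP4 with n = 3 libraries each. Fertility in this design goes together with field or incubator, day length and temperature, which cannot be told apart.

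A circRNA forms when a downstream splice donor joins an upstream splice acceptor, so that the RNA closes to a ring without free ends. In sequencing it is seen only through reads that cross this back-spliced junction. The span counts every base between the joined ends on the genome, and a ring whose introns were removed is shorter than its span. Rings from a single locus can share one end or differ at both, and each pair of ends has its own identifier. In plants most circRNAs come from exons of protein-coding genes, and few have a known function.

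Long circRNAs were few but held 66698 of the 126053 junction reads (52.9%). Their total reads had a median of 23 (quartiles 8 and 106.5) and reached 4972, and they made up 83 of the 141 circRNAs with at least 100 reads. Median totals were lower in the circRNAs with the same minimum of 5 reads and shorter spans, 8 for the 728 under 1000 bases and 9 for the 593 of 1000 to under 5000 bases. Spans had a median of 12259 bases (quartiles 7398.5 and 21256). They were under 10000 bases for 115 members and at least 50000 for 25. The authors' length column gave the span plus 1 for 274 of the 319 and a value under 5000 for 38. The members were chosen by span and total reads, so these values describe the choice. Just outside the span limit were Chr7:16975189-16980186 with 4997 bases (6 reads) and Chr2:19035941-19040940 with 4999 (85 reads), and just inside were Chr2:11200476-11205488 with 5012 (15 reads) and Chr1:18152219-18157232 with 5013 (9 reads). At the read limit, 55 circRNAs with long spans had 4 reads and were left out, and 26 had 5 and were kept.

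The 3 longest members had at most 76 reads each. Chr11:27244861-27344348 (99487 bases) had 25 reads, Chr11:22771490-22870054 (98564 bases) had 16 and Chr1:773843-866216 (92373 bases) had 76, the last in 13 libraries. Members lay on all 12 numbered chromosomes, from 8 on chromosome 9 to 44 on chromosome 1, and chromosome 12 held more of their reads than any other (13532 of 66698, in 30 members).

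Depth limits what a 0 can mean here. Libraries held between 4066 and 8686 junction reads, and a 0 allows a share of up to 0.0345% to 0.0738% of a library's junction reads, with 3 reads as the limit for counting error only. No value of 1 occurs in the table and the smallest value above 0 is 2. A library with 1 read may thus also be given as 0, which the limit of 3 reads does not cover. As a check of the tissue, a list of 7 identifiers of floral organ and anther genes had counts in all 18 libraries. Their summed level was lower in WXS (F) at each stage, at 211 to 217 CPM (reads of coding genes scaled to a common library total) against 326 to 376 at P2, 272 to 279 against 582 to 712 at P3 and 415 to 459 against 643 to 700 at P4. Among the 7, levels ran from 64.1 to 363 CPM for OsMADS16 and from 25.5 to 279 for MEL1, but from 1.77 to 4.35 for UDT1. Genes with high levels thus weigh most in the sum, and the genes were not compared singly. The part of the lower sum in the results on circRNAs was not tested. In whole panicles fewer cells of a type and less RNA per cell cannot be told apart. The labels do not say which plants a library came from, so P values measure the spread between libraries.

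Long circRNAs took a larger share of the junction reads at microspore formation. In WXS (S) they held 54.2, 43.2 and 47.8% of the reads of the 3 libraries at P2, 40.9, 60.4 and 53.1% at P3, and 65.2, 63.5 and 66.2% at P4. In WXS (F) the shares were 45.4, 49.8 and 46.0% at P2, 48.5, 49.1 and 53.4% at P3, and 61.5, 58.7 and 62.4% at P4. Every P4 library was above every P2 library, and SP3-2 was the only P3 library within the range of P4. The library SP3-2 had the lowest junction total, 4066, and SP4-1 and SP4-2 followed with 4439 and 4226, but the FP4 libraries held 6905 to 7878. The part of depth in these shares was not tested. The 5 loci with the most reads took 15.7 to 25.9% at P2, 17.6 to 30.5% at P3 and 32.2 to 42.5% at P4. The remaining long circRNAs took 20.9 to 28.3%, 23.4 to 31.1% and 23.8 to 32.9%, ranges that overlapped between all stages.

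**Figure D1:**
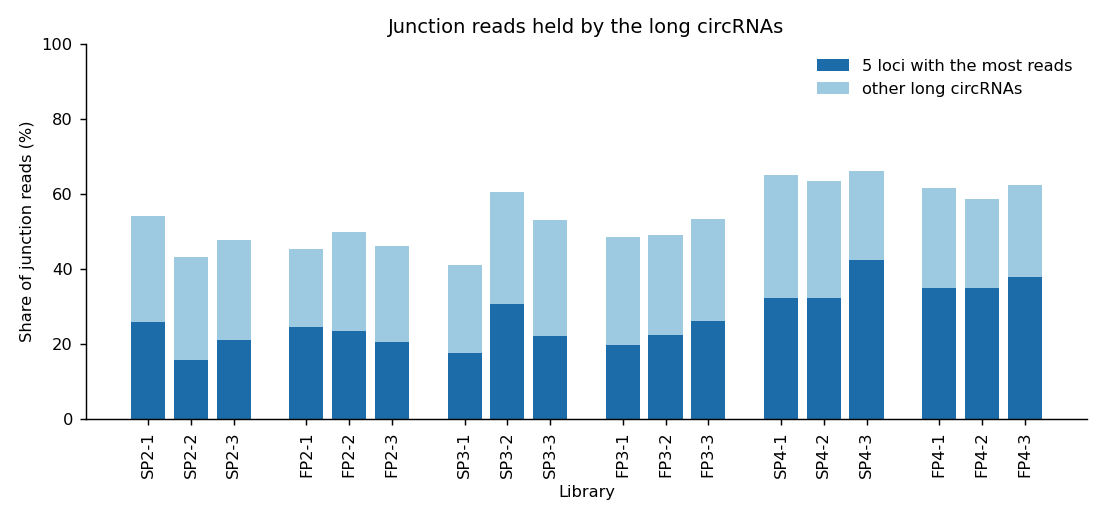
Share of each library's junction reads (%) held by the 319 long circRNAs, 1 bar per library, divided into the 5 loci with the most reads and the others. The P4 bars reach 58.7 to 66.2%, and the dark part alone reaches 32.2 to 42.5% there.

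The detection of long circRNAs ranged from every library to 1. Reads in all 18 libraries were found for 27 members (8.46%, against 0.824% under 1000 bases and 2.70% between), and these were 27 of the 49 circRNAs of the table with reads in all libraries. Another 62 had reads in 1 library, up to 415 of them, and 59 in 2. At P2 226 members had reads, at P3 234 and at P4 215. Reads at 3 stages were found for 136 members, and reads at a single stage for 34 at P2, 34 at P3 and 31 at P4. In both conditions 203 members had reads. In WXS (S) alone 52 had reads, 31 of them in 1 library and 6 in at least 3, and in WXS (F) alone 64 had reads, 31 of them in 1 library and 18 in at least 3. Of the 728 circRNAs under 1000 bases, 175 had reads in WXS (S) alone and 155 in WXS (F) alone. Of the 593 between, these were 82 and 154. The part of depth in these counts was not tested.

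The 10 members with the most reads held 46.1% of all reads on long circRNAs. Chr5:8690283-8697919 (7636 bases, 4972 reads) was present throughout, with 223, 390 and 427 reads across SP2, 279, 254 and 293 across FP2, 550, 218 and 476 across SP3, 244, 233 and 229 across FP3, 158, 159 and 211 across SP4, and 186, 230 and 212 across FP4. It was lower in WXS (F) at P3 by a log2 fold change of -0.90 (standard error 0.27), which did not pass (edgeR's quasi-likelihood test, adjusted P = 0.121). Chr4:31022314-31029529 (7215 bases, 3027 reads) varied little, from 105 reads in SP4-3 to 238 in FP3-1. Chr2:6120787-6133046 (12259 bases, 2565 reads) had 75 to 196 reads per library and Chr2:6127179-6139799 (12620 bases, 2288 reads) had 95 to 169. These 4 had reads in all 18 libraries, and the log2 fold changes between WXS (F) and WXS (S) over the 18 libraries lay between -0.43 and 0.19.

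The other 6 of the 10 dropped to 0 in some libraries. Chr1:34919266-34940362 (21096 bases, 3191 reads) and Chr1:34918766-34939781 (21015 bases, 2624 reads) overlapped each other, and each had reads in 15 libraries. The first had 201, 325 and 265 reads across SP2 and 0, 0 and 174 across FP3, while the second had 217, 0 and 0 across SP2 and 173, 178 and 148 across FP3. Both were at 0 in SP3-1. Chr8:27930611-27963872 (33261 bases, 3004 reads) had 421, 178 and 138 reads across SP2, 360, 231 and 0 across FP2, 122, 170 and 87 across SP3, 366, 0 and 0 across FP3, 0, 215 and 282 across SP4, and 213, 0 and 221 across FP4. It had no group of WXS (F) with reads in all 3 libraries. The remaining 3 were Chr12:26648743-26660459 (4184 reads), Chr12:26650410-26662169 (2466) and Chr12:26648130-26659883 (2413), copies of a single locus described below.

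Overlapping copies were common. Joining members whose spans shared at least 1 base gave 209 loci, 147 with a single member and 62 with 2 to 9 members. These 62 loci held 172 members in 209 overlapping pairs. In 105 pairs, from 26 loci and 82 members, both ends differed but the spans were within 2% of each other, a limit chosen after the values were seen. These shifted copies had starts 5 to 7308 bases apart, with a median of 990, while their spans differed by a median of 79 bases. Most of the 105 pairs came from the loci on chromosomes 12 and 2 described below, with 9 and 8 copies. These loci weigh most in the values for shifted pairs. The span was identical in 6 of the shifted pairs. On chromosome 6, Chr6:24933646-24942829, Chr6:24933868-24943051 and Chr6:24934599-24943782 were 3 such copies of 9183 bases each, with 35, 75 and 6 reads. They are named here for this feature, which was noticed in the data. A shared start or end was found in 25 pairs (16 loci), and 79 pairs overlapped in other ways.

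**Figure D2:**
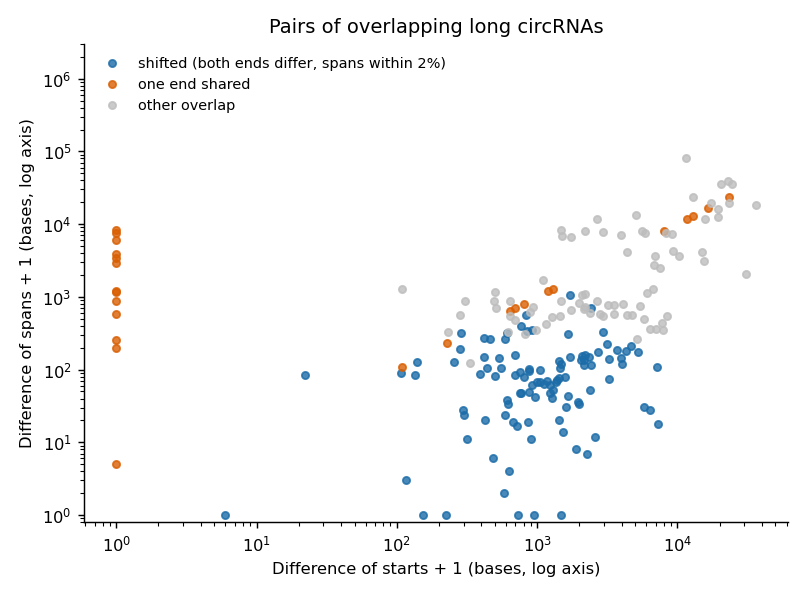
Each point is a pair of overlapping long circRNAs, with the difference of their starts plus 1 on the horizontal axis and of their spans plus 1 on the vertical axis (bases, both log axes). The 105 shifted pairs lie low, with starts a median of 990 bases apart and spans a median of 79 bases apart, and pairs sharing a start stand at the left edge.

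Copies of a locus often had reads in different libraries. For shifted pairs, both copies had reads in 23.6% of the library comparisons in which at least 1 of them had reads. This share was 22.2% for pairs that shared an end and 28.2% for the other pairs. Among the 209 pairs, 59 never had reads in the same library. Members had reads in a median of 3 of the 18 libraries, and pairs of members from different loci were not compared. Whether these shares are particular to copies of a locus was therefore not tested. How the search for junctions divided the reads of near-equal copies was not tested, so the counts of single copies are uncertain.

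The locus with the most reads lay at Chr12:26647140-26662169, with 9 copies of 11675 to 11821 bases and 11988 reads (9.51% of all junction reads). Chr12:26648743-26660459 had 210, 0 and 0 reads across SP2, 195, 178 and 219 across FP2, 166, 191 and 144 across SP3, 350, 291 and 260 across FP3, 228, 227 and 290 across SP4, and 372, 424 and 439 across FP4. It was missing in 2 libraries of SP2 alone. Chr12:26648130-26659883 had 306, 0 and 420 reads across SP2, 0, 268 and 0 across FP3, 349, 0 and 0 across SP4, 507, 0 and 563 across FP4, and 0 in FP2 and SP3. Chr12:26650410-26662169 had reads in 1 library of each of 4 groups, 300 in FP2-3, 548 in FP3-3, 604 in SP4-3 and 1014 in FP4-2, and 0 in the other 14 libraries. Each of these counts stood beside 2 replicates at 0, and 1014 was the highest count of any copy at this locus.

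Several smaller copies had reads in few libraries, but not all. Chr12:26649182-26661001 had 111 reads spread over 13 libraries, between 3 and 15 in each. Chr12:26649716-26661391 had 154 reads in SP2-3, 124 in FP2-2, 275 in FP3-3, 329 in SP4-3 and 585 in FP4-3. Chr12:26647140-26658826 had 164 in SP2-2, 160 in FP3-2 and 247 in FP4-1, and Chr12:26649044-26660737 had 186 in SP3-2 and 264 in FP3-2. Each library held reads of 1 to 5 of the 9 copies. Summed over the copies, the locus had 516, 164 and 574 reads across SP2 and 347, 309 and 519 across FP2, 176, 380 and 315 across SP3 and 360, 998 and 1091 across FP3, and 583, 231 and 1227 across SP4 and 1145, 1452 and 1601 across FP4. No library was at 0 for the sum. The sums were higher at P4 than at P3, with a log2 fold change of 1.18 (standard error 0.33), which did not pass after adjustment over all features (edgeR's quasi-likelihood test, adjusted P = 0.102). Between WXS (F) and WXS (S) the sums differed by 0.60 (0.27) over the 18 libraries, which did not pass (adjusted P = 0.129).

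**Figure D3:**
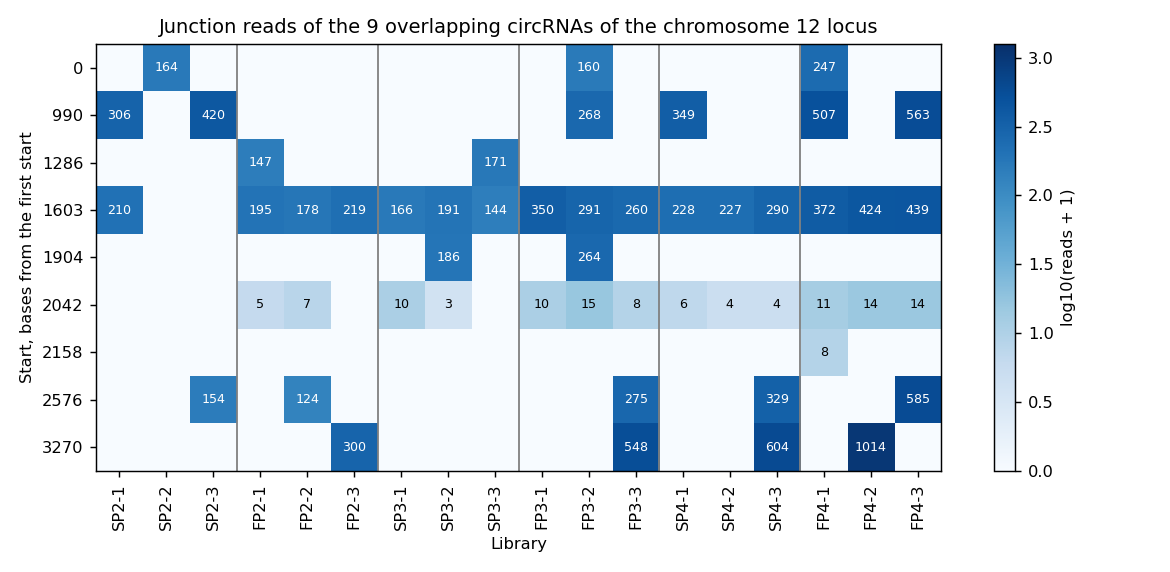
Junction reads of the 9 overlapping circRNAs of the chromosome 12 locus, 1 row per circRNA by its start relative to the first start (bases) and 1 column per library, with the colour as log10(reads + 1) and blank cells for 0. Only the row at 1603 bases has reads in 16 of the 18 libraries, and the row at 3270 bases has 300 to 1014 reads in 4 libraries and 0 elsewhere.

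The next loci showed less of this. The locus at Chr2:6120787-6141324 held 8 copies and 6843 reads, and its 3 main copies, Chr2:6120787-6133046, Chr2:6127179-6139799 and Chr2:6125464-6137934 (1678 reads), had reads in all 18 libraries. Of its minor copies, Chr2:6123497-6135932 had 94 reads in FP2-1 and 106 in SP3-1, Chr2:6121409-6133999 had 55 in SP2-3, and Chr2:6127806-6140423 had 28 in FP3-1, with 0 elsewhere. Library sums of this locus lay between 230 and 468, and the fold changes of the sums between WXS (F) and WXS (S) were 0.11, -0.03 and -0.07 on the log2 scale at P2, P3 and P4. The locus at Chr1:34918352-34940362 held the pair named above and Chr1:34918352-34939098, which had 27 reads in SP4-3 and 26 in FP4-3, and it summed to 5868 reads. At Chr5:8690283-8700138 (5054 reads) the second copy, Chr5:8693077-8700138, had 31 reads in FP2-3, 36 in SP3-1 and 15 in FP3-3. At Chr8:27930611-27965049 (3301 reads) the second copy, Chr8:27931453-27965049, had 297 reads in SP4-3, a library in which the first had 282. The 5 loci together held 33054 reads, 49.6% of the reads on long circRNAs.

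Reads that were high in one replicate and 0 in another were described as on-off. A member and a group were counted when the highest of the 3 replicates had at least 10 reads, and as on-off when another replicate had 0. This held for 172 of 446 such pairs (38.6%), 60 with 1 replicate at 0 and 112 with 2. By group the share was 38.1% in SP2, 44.7% in FP2, 38.8% in SP3, 39.1% in FP3, 37.5% in SP4 and 33.3% in FP4. The same measure gave 26 of 133 pairs (19.5%) for spans under 1000 bases and 44 of 210 (21.0%) for spans of 1000 to under 5000 bases. For spans under 1000 bases the share was 40.6% in SP2, above that of the long circRNAs in that group, and 7.41% in FP2. The members share loci and libraries, so the shares stand side by side with no test.

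On-off reads were not limited to low counts or to overlapping copies. With 100 or more reads in the highest replicate, 50 of 106 pairs of long circRNAs (47.2%) had another replicate at 0, against 7 of 23 (30.4%) for spans of 1000 to under 5000 bases. With 20 to 49 reads these shares were 30.4% and 12.0%. Members alone in their locus had on-off reads in 58 of 122 pairs (47.5%), and members overlapping another in 114 of 324 (35.2%). With the members of a locus summed first, the share was 28.0% over all loci and 16.8% (36 of 214) over loci of several members.

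**Figure D4:**
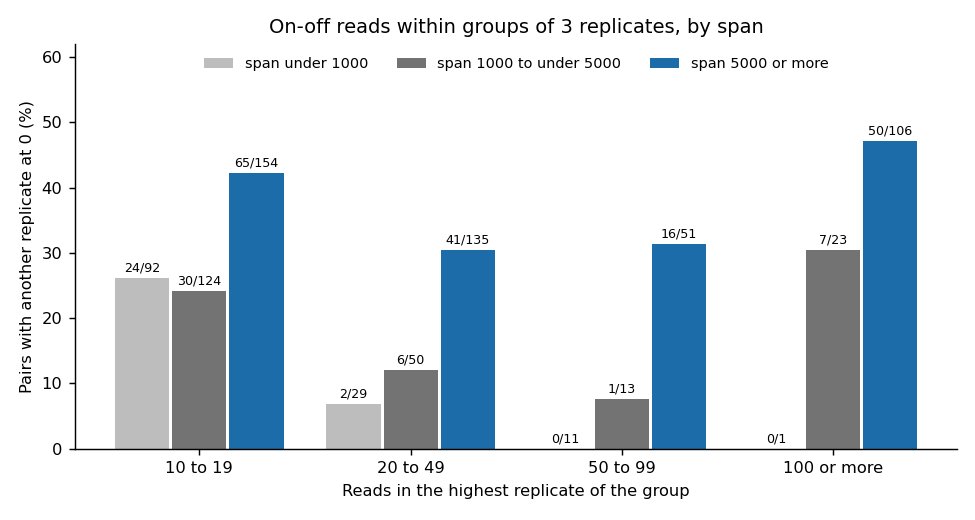
Percent of circRNA and group pairs in which another replicate had 0 reads, by the reads in the highest replicate and by span in bases, with the number on-off and the number of pairs above each bar. Long circRNAs have the highest bar in each class of reads, from 30.4% at 20 to 49 reads to 47.2% at 100 or more.

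The 5 highest on-off values were all copies at the chromosome 12 locus, from 1014 reads in FP4-2 down to 548 in FP3-3. Outside it, Chr3:17716357-17728415 (12058 bases), named for its count after the values were seen, had 415 reads in SP3-3 and 0 in the other 17 libraries. It overlapped no other member.

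WXS (F) and WXS (S) were compared at each stage on the whole table, to ask which circRNAs go with the fertility transition. The long circRNAs that had reads in 3 or more of 6 libraries numbered 101 at P2, 108 at P3 and 104 at P4. More of them passed higher than lower in WXS (F), which also held over all tested circRNAs. Passing needed P under 0.05 before adjustment and a log2 fold change of 1 or more in either direction. At P2 12 were higher and 6 lower, where 15% of all tested circRNAs were called higher and 7.11% lower. At P3 16 were higher and 4 lower (14% and 7.01% of all tested), and at P4 14 were higher and 4 lower (17.6% and 4.32%). In either direction 17.8, 18.5 and 17.3% of the tested members passed at P2, P3 and P4. The other tested circRNAs passed in 23.5, 22.0 and 24.7%. A member had to have reads in 3 libraries to be tested, so those present in a single group passed the filter through that group. This limit applies to each P value within a stage, here and below, for a member at 0 throughout WXS (S) or WXS (F). In all 3 libraries of WXS (S) the count was 0 for 7 of the 12, 11 of the 16 and 4 of the 14 members called higher. After adjustment over all tested circRNAs 2 members were called at P2, 5 at P3 and 3 at P4. These were 1.98, 4.63 and 2.88% of the tested members, beside 2.03, 1.82 and 1.44% of all tested circRNAs. Of these 10 calls 9 were lost under at least 1 alternative that tested them. That of Chr4:16352807-16382881 at P3 was kept in the 9 of 12 alternatives that tested it. The other 3 each left out an FP3 library. With 0 reads in SP3 it then had reads in too few libraries, so they could not show whether the call holds. The median log2 fold change of the tested members was 0.13, 0.31 and -0.08 by stage from P2 to P4, against 0.20, 0.30 and 0.47 over all tested circRNAs. Without TMM normalization the medians of all circRNAs moved by 0.19, -0.15 and -0.16. At P4 DESeq2 called 12 higher and 6 lower, and without SP4-1 0 members passed the adjustment. Leaving out 1 FP library lowered the unadjusted counts to 9, 7 and 7 at P2 (FP2-1, FP2-2 and FP2-3) and to 9, 11 and 10 at P3 (FP3-1, FP3-2 and FP3-3), where circRNAs present in WXS (F) alone then fell below the 3 libraries needed.

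Over the 3 stages 43 of 143 tested members were called at least once, beside 31.6% of all circRNAs tested at any stage (180 of 570). Of the 43, 32 were called at 1 stage, 9 at 2 and 2 at 3. Chr4:16352807-16382881 (30074 bases, 674 reads) was higher in WXS (F) at all stages. It had 0 reads in all SP2 libraries and 30, 38 and 28 across FP2, 0 in all SP3 libraries and 92, 105 and 72 across FP3, and 2, 2 and 0 across SP4 against 119, 88 and 98 across FP4. The groups did not overlap at any stage. With 3 reads per library as the floor for a 0, it was at least 12.7-fold higher at P2 and at least 22.3-fold higher at P3, and at P4 its log2 fold change was 5.75 (standard error 0.69; edgeR's quasi-likelihood test, adjusted P = 0.00483, 0.000791 and 0.0127). Its only overlapping copy had 13 reads in FP3-2.

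Chr10:21206978-21220099 (13121 bases, 105 reads), alone in its locus, was also called higher at all 3 stages. It was at 0 in all 9 libraries of WXS (S), and had 5, 8 and 3 reads across FP2, 15, 9 and 11 across FP3, and 14, 15 and 25 across FP4. This was at least 2.16-fold higher at P2, 2.90-fold at P3 and 3.94-fold at P4, with edgeR adjusted P of 0.0701, 0.0481 and 0.0568. No member was called lower at all 3 stages.

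Further members were higher in WXS (F) at P3. Chr1:20643559-20654846 (11287 bases, 59 reads) had reads in FP3 only, 27, 14 and 18, at least 4.89-fold above SP3 (adjusted P = 0.0164, edgeR). A copy of the same span, Chr1:20643407-20654694, had 0, 28 and 25 reads across FP3 and 0 in the other 15 libraries. Chr4:4470156-4485254 (15098 bases, 119 reads) had 0 reads in SP3 and 17, 15 and 15 across FP3, at least 3.90-fold higher (adjusted P = 0.0164, edgeR). At P4 it had 20, 17 and 7 reads across SP4 and 0, 14 and 11 across FP4, where the groups overlapped. At P3 both this member and Chr1:20643559-20654846 passed the filter through FP3 alone, the group where they are high.

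At P4 the difference was seen in members that WXS (S) also held. Chr7:15359766-15369733 (9967 bases, 419 reads), found in all 18 libraries, had 3, 5 and 4 reads across SP4 and 38, 40 and 54 across FP4, which differed by 3.03 on the log2 scale (standard error 0.33, edgeR adjusted P = 0.0125). At P2 it had 4, 16 and 26 reads across SP2 and 18, 10 and 9 across FP2, and at P3 29, 10 and 39 across SP3 and 48, 35 and 31 across FP3. Chr4:23718633-23749978 (31345 bases, 232 reads) had 5, 3 and 7 reads across SP4 and 33, 39 and 27 across FP4, a log2 fold change of 2.32 (0.37, adjusted P = 0.0462). This P4 call was lost in 9 of 12 alternatives, with adjusted P between 0.000694 and 0.320, and that of Chr7:15359766-15369733 in 5 of 12, with adjusted P up to 0.0688. It was also above its SP2 values, 7, 6 and 5 reads, in FP2, with 20, 17 and 9, and passed there before adjustment (log2 fold change 1.36, adjusted P = 0.142). A copy within it, Chr4:23731650-23739511 (7861 bases), had 4, 2 and 4 reads across SP4 and 21, 12 and 16 across FP4.

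**Figure D5:**
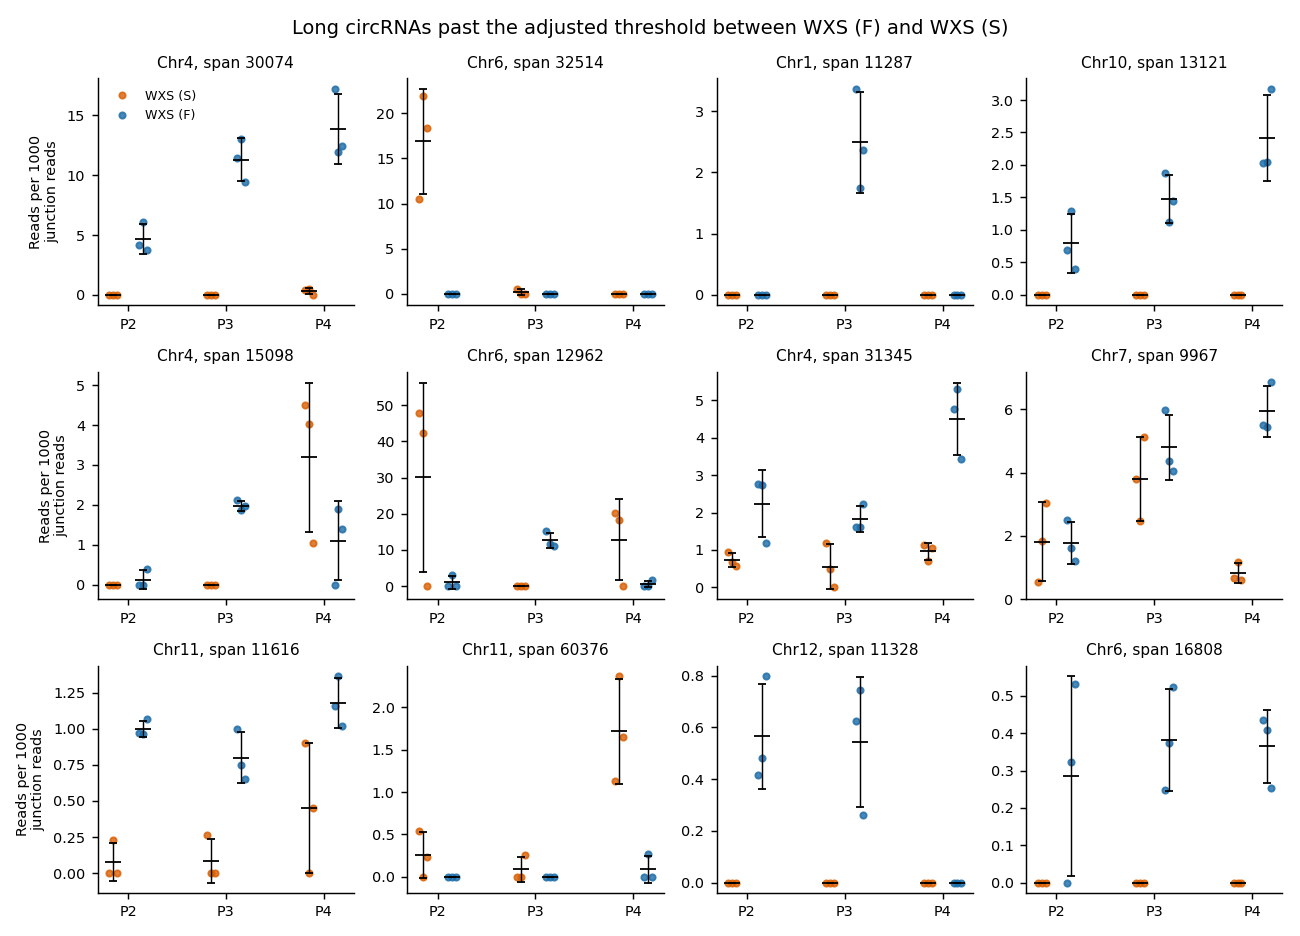
Reads per 1000 junction reads of a library for the 12 long circRNAs past the adjusted threshold between WXS (F) and WXS (S), by stage, with points for libraries and bars for the mean ± SD (n = 3). Chr4 with a span of 30074 bases and Chr10 with 13121 are at 0 in WXS (S) or nearly so at every stage, and Chr6 with 32514 bases is high in SP2 alone.

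Fewer members were lower in WXS (F), and the clearest was at P2. Chr6:2176755-2209269 (32514 bases, 429 reads) had 78, 190 and 157 reads across SP2 and 0 in all FP2 libraries, at least 39.1-fold lower (adjusted P = 0.00296, edgeR). Outside SP2 it had 4 reads, in SP3-1. Chr5:3369594-3425108 (55514 bases, 354 reads) had 50, 46 and 72 reads across SP2 and 21, 20 and 27 across FP2, a log2 fold change of -1.28 (0.30), without passing the adjustment (adjusted P = 0.0701). At the later stages it had 26, 19 and 23 reads across SP3 and 0, 14 and 20 across SP4, while WXS (F) held 0, 16 and 0 at P3 and none at P4. Chr11:9218677-9279510 (60833 bases) had 10, 2 and 5 reads across SP3 and 0 in FP3. At P4 Chr11:27244861-27344348, the longest member, had 12, 9 and 4 reads across SP4 and 0 in the other 15 libraries, at least 4.44-fold lower in FP4 (adjusted P = 0.0681, edgeR). Chr8:4384922-4404026 (19104 bases, 75 reads) had 4, 5 and 3 reads across SP4 and 0 in FP4, but 13, 6 and 12 across SP3 against 7, 6 and 6 across FP3.

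With the 18 libraries in a single fit and the stage as a factor, 9 of 198 tested members differed between WXS (F) and WXS (S) after adjustment, 7 higher and 2 lower in WXS (F). Of all tested circRNAs 2.58% passed higher and 0.93% lower. Testing needed reads in at least 3 of the 18 libraries. Chr10:21206978-21220099, Chr1:20643559-20654846, Chr12:13766689-13778017 and Chr6:29539663-29556471 were at 0 in all 9 libraries of WXS (S) and met this through WXS (F) alone. Chr6:2176755-2209269 met it through WXS (S) alone. For these the filter already used the group where they are high. The calls of Chr4:16352807-16382881, Chr10:21206978-21220099 and Chr4:23718633-23749978 held under all 22 alternatives, and the other 6 were lost under at least 1. The fit takes a difference common to the stages. Chr1:20643559-20654846 had reads in FP3 only, and Chr6:2176755-2209269 in SP2 apart from 4 reads, so these calls do not show such a difference. Across the alternatives to the main edgeR fit their adjusted P reached 0.806 and 0.529. Beside these and Chr4:16352807-16382881, Chr10:21206978-21220099 and Chr4:23718633-23749978, the 9 included 4 with low counts. Chr11:23848113-23859729 (11616 bases) had 0, 2 and 0 reads across SP2 and 7, 6 and 8 across FP2, 2, 0 and 0 across SP3 and 8, 6 and 5 across FP3, and 4, 0 and 3 across SP4 and 8, 10 and 8 across FP4, a log2 fold change of 2.47 (0.66, adjusted P = 0.0366). Its ratio of summed reads per junction read was 12.3 at P2 (95% exact interval 3.02 to 109, for counting error only). The same quantity was 7.74 at P3 (1.87 to 68.5). Chr12:13766689-13778017 (11328 bases) had 3, 3 and 6 reads across FP2, 5, 6 and 2 across FP3 and 0 in all other libraries (adjusted P = 0.0392, edgeR). Chr6:29539663-29556471 (16808 bases) had 0, 2 and 4 reads across FP2, 2, 3 and 4 across FP3, 3, 3 and 2 across FP4, and 0 in all 9 libraries of WXS (S) (adjusted P = 0.0237, edgeR). The second member lower in WXS (F) was Chr11:27221940-27282316 (60376 bases), with 4, 0 and 2 reads across SP2, 0, 0 and 2 across SP3, and 5, 10 and 11 across SP4 against 2 reads in all of WXS (F), in FP4-2 (log2 fold change -3.66, standard error 0.90, adjusted P = 0.0216). It overlapped the longest member, and both were highest in SP4.

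A locus on chromosome 7 was higher in WXS (F) when its members were summed. The 6 members lay within Chr7:10731712-10759797 and summed to 5, 13 and 2 reads across SP2 and 8, 4 and 11 across FP2, to 11, 5 and 5 across SP3 and 49, 33 and 47 across FP3, and to 21, 6 and 19 across SP4 and 96, 110 and 137 across FP4. The groups overlapped at P2 and were apart at P3 and P4. With the members of each locus summed before the fit, its log2 fold change was 2.40 (0.42) at P3 and 2.49 (0.45) at P4 (edgeR's quasi-likelihood test, adjusted P = 0.0172 and 0.0436). The copies did not all follow the sum, since Chr7:10733900-10759431 had 0 reads in all P3 libraries. This locus was chosen for naming after its sums were seen.

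Stage patterns passed adjustment in few members. Of the 198 tested, 0 differed between P3 and P2 after adjustment with edgeR's quasi-likelihood test, and 0 with DESeq2, where 0% of all tested circRNAs passed. At the unadjusted threshold 30 differed, 19 higher and 11 lower at P3, where 5.68% of all tested circRNAs were higher (55) and 6.82% lower (66). The member with the smallest P was Chr6:2176755-2209269, with the values given above (log2 fold change -6.10, standard error 1.09, adjusted P = 0.0677). Chr2:6718882-6723934 (5052 bases, 518 reads) had reads at P3 only, 276 in SP3-3, 138 in FP3-1 and 104 in FP3-3, and 0 in the other 3 libraries of that stage. Chr5:3363975-3427421 (63446 bases, 64 reads) had reads at P2 only, 27, 0 and 12 across SP2 and 25, 0 and 0 across FP2. This member, Chr2:6718882-6723934 and Chr6:2176755-2209269 met the limit of 3 libraries only through the stage where they are high.

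Between P4 and P3, 1 member passed, higher at P4, as against 0.103% of all tested called higher and 0.103% lower. This was Chr4:23731650-23739511, which had 0 in all P3 libraries and 4, 2, 4, 21, 12 and 16 reads in the 6 libraries of P4 (edgeR's quasi-likelihood test, adjusted P = 0.0215). At P2 it had 2 reads in SP2-1, so it met the limit of 3 libraries only through P4, the stage where it is high. At the unadjusted threshold 41 members differed, 19 higher and 22 lower at P4, where 5.06% of all tested circRNAs were higher (49) and 11.6% lower (112). Chr7:10733900-10759431 (25531 bases) had 0 reads in all P3 libraries, 3, 0 and 0 across SP4 and 0, 28 and 22 across FP4, and did not pass (adjusted P = 0.202). It too met the limit of 3 libraries only through its reads at P4.

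The difference between WXS (F) and WXS (S) changed with the stage in 1 member after adjustment, against 0.103% of all tested circRNAs. Chr4:8244829-8264058 (19229 bases, 336 reads) had 0 reads in SP2 and 8, 6 and 18 across FP2, then 59, 22 and 62 across SP3 and 24, 13 and 6 across FP3, and 16, 12 and 18 across SP4 and 22, 23 and 27 across FP4. WXS (F) was thus at least 4.06-fold higher at P2 and lower at P3 by a log2 fold change of -1.83 (0.52), and at P4 the log2 fold change was 0.26 (0.26). The interaction had an adjusted P of 0.00737 (edgeR's quasi-likelihood test). Its only copy, Chr4:8249591-8268265 (18674 bases), had 4, 3 and 3 reads across SP3, 0 in FP3 and 8 reads at P4.

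The second smallest P for the interaction was that of Chr6:2200239-2213201 (12962 bases, 1220 reads). It had 355, 368 and 0 reads across SP2 and 0, 19 and 0 across FP2, 0 in SP3 and 121, 93 and 85 across FP3, and 90, 77 and 0 across SP4 and 0, 0 and 12 across FP4. At P3 it was at least 24.8-fold higher in WXS (F) (adjusted P = 0.000791, edgeR), while at P2 and P4 the groups overlapped at 0. The interaction did not pass for it alone (adjusted P = 0.120). It shares its locus with Chr6:2176755-2209269, with Chr6:2180744-2206090, which had 110 reads in SP2-3 alone, and with Chr6:2200239-2209269, which had 38 reads in SP2-1 alone. Where the first member was 0, in SP2-3, these others held 267 reads. In SP2-1 and SP2-2, however, Chr6:2176755-2209269 and Chr6:2200239-2213201 both had reads. The locus sums were 471, 558 and 267 reads across SP2 and 0, 19 and 0 across FP2, 4, 0 and 0 across SP3 and 121, 93 and 85 across FP3, and 90, 77 and 0 across SP4 and 0, 0 and 12 across FP4. For the sums the interaction passed, with an adjusted P of 1.02e-09 (edgeR), and with members summed per locus it passed for 7 loci in place of 1 member. Without SP2-1 it passed for 9 members.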

How the data were processed

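Total RNA of 18 young-panicle libraries was depleted of ribosomal RNA and sequenced with strand kept. The authors aligned reads by HISAT2 (MSU genome), passed those left unmapped to find_circ to detect back-spliced junctions, and deposited counts of junction reads per circRNA without normalization. The deposited length column (other unit, bases) was used only as an alternative to the span. The authors also deposited whole-number counts of coding genes, used here for a list of 7 tissue identifiers. The submitters' notes name StringTie 1.3.1 beside HISAT2. The deposited TPM, FPKM and lncRNA tables were not used here. Host genes and junction sequences were not analysed here.

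Members and lists were chosen with earlier results of these data known. Counts were fitted over the whole table by edgeR 4.0.16 (quasi-likelihood test, TMM on the tested circRNAs) in R 4.3.3, for each stage with reads required in 3 or more of 6 libraries, and over 18 libraries in 3 or more. Calls needed a log2 fold change of 1 or more in either direction (not for the interaction) and P below 0.05, unadjusted or Benjamini-Hochberg adjusted over all tested circRNAs. Standard errors are approximate. Where all libraries of a group held 0, folds are lower bounds against 3 reads per library. The procedure was tested on simulated counts with the same dispersion for all circRNAs. On-off reads and copies replacing each other were not simulated, so that test does not cover them. Alternatives were DESeq2 1.42.0 (poscounts), no TMM, no filter, at least 10 reads in the fit, all 18 libraries in a single fit, a replicate block, members summed per locus, and each library left out. Python 3.11.15 with pandas 2.3.3 was used for the rest.

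Named members were those past adjustment between WXS (F) and WXS (S), the 2 higher and 2 lower with the smallest P at each stage and stage contrast, the 10 with the most reads, up to 6 members of each of the 5 loci with the most reads, the 5 highest on-off values, those called alike at all stages, the 3 longest, those nearest the limits and the 2 with the smallest interaction P. Others are said to be named after their values were seen.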

Additional observations from a re-analysis of the deposited data

Results flagged for a closer look

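One long circRNA differed in its difference between WXS (F) and WXS (S) from stage to stage. Chr4:8244829-8264058 was higher in WXS (F) at P2 and lower at P3, with an adjusted P of 0.00737 for the interaction of stage and condition over all 18 libraries (edgeR's quasi-likelihood test, 198 members tested among 968 circRNAs). In reads the groups were apart at P2, but at P3 SP3-2 (22 reads) was below FP3-1 (24 reads). SP3-2 had the lowest junction total (4066), against 8025 in FP3-1, and per junction read the groups were apart at P3 as well.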

How the results depend on the processing

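Without TMM all 10 counts of calls were within 1.5 times those reported, with splits of 15 higher and 6 lower at P3 and 13 and 6 at P4. DESeq2 gave 4, 10 and 11 members past adjustment at P2, P3 and P4. With no filter on reads 44, 52 and 36 passed unadjusted and 23, 23 and 16 adjusted. With at least 10 reads in the fit 0, 2 and 0 passed adjustment, and 0 between P4 and P3. A single fit of all 18 libraries gave 32 at P2 and 31 at P3 unadjusted, and 2 adjusted at P3. With members summed per locus 1 locus passed adjustment at P2, 6 at P4, 3 between P3 and P2, 2 between P4 and P3, and 7 for the interaction, and the on-off share was 28.0%. That share was 47.2% from 5 reads. Loci by a shared start or end numbered 16, and a span of at least 10000 bases left 204 members. The causes were not tested.

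Correlations of same-numbered libraries of WXS (S) and WXS (F) lay between -0.017 and 0.135, against -0.109 to 0.0933 for differently numbered ones. At P2 the same-numbered values (0.0696, 0.135 and 0.0653) were all above the others (-0.0727 to 0.00109). This was not so at P3 or P4. Whether replicate numbers pair the libraries was not settled, and the main fits left them unpaired. With a replicate block 8, 10 and 0 members passed adjustment at P2, P3 and P4, 19 between WXS (F) and WXS (S), 14 between P3 and P2, 14 between P4 and P3, and 12 for the interaction.

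Leaving out each library in turn gave 7 to 17 unadjusted and 1 to 5 adjusted calls at P2, 9 to 26 and 0 to 5 at P3, and 13 to 19 and 0 to 4 at P4. Adjusted counts were 2, 1 and 0 without FP3-1, FP3-2 and FP3-3, and 1 without SP4-3. Over the 18 libraries they were 6 to 11 between WXS (F) and WXS (S), 0 to 2 for each stage contrast and 1 to 9 for the interaction, and the on-off share was 35.7 to 37.5%. With a library left out fewer circRNAs have reads in 3 libraries. Of 37 calls of named members, 17 were lost under at least 1 alternative and 20 under none that tested them, with 57 of 475 values lost and 0 reversed. That tally takes calls within a stage at the unadjusted threshold. At the adjusted threshold 29 of 99 values of the 10 calls within a stage were lost, and 21 further values could not be had because the member no longer had reads in 3 libraries. Over the 18 libraries 26 of 195 values of the 9 calls were lost. Depth limits members with few reads most, since a 0 allows up to 3 reads by counting error alone.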
